A study of Danio rerio with 8 samples.

Results

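The claudin genes of zebrafish were examined in RNA from eyes of embryos at 36 hours post fertilization (hpf). A gene was taken as a member where its name in the deposited gene table begins with *cldn* and its row lies on chromosomes 1 to 25, which gave 31 genes of 37114 rows, with no name repeated. The study compared 4 WT libraries, whose titles begin with AB, with 4 libraries of a *flrt2* mutant line made with CRISPR/Cas9, which carries a 20 bp deletion in *flrt2* and whose titles begin with CH1359. No treatment is named for either group, each library pooled about 40 eyes, and the labels call the tissue retina where the Methods call it eyes. The mutant group is 1 allele of 1 line, and its genotype is labelled only as mutant. The Methods describe crosses of heterozygous fish that gave the wild-type, heterozygous and homozygous animals of the phenotypic work, but do not tie the sequenced pools to such a cross. The labels do not say that the pools came from separate clutches, so p-values measure the spread between these pools. The WT libraries carry the suffixes 12_16, 1_19, 1_8 and 1_8_ysy and the others 12_16, 1_19, 2_17 and 1_8_ysy, and values per library are given in these orders.

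Claudins are membrane proteins with 4 transmembrane segments that form the strands of tight junctions, the seals between neighbouring cells of an epithelium or endothelium. Some claudins close the space between cells, others form pores that let chosen ions through, and the set that a tissue makes sets how leaky its barrier is. In the eye, such barriers lie in the vessels, the pigment epithelium, the surface ectoderm and future cornea, and, early in development, between cells of the neuroepithelium.

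The level of the targeted gene was read first. *flrt2* itself had 2.48, 2.33, 2.25 and 2.55 FPKM (fragments per kilobase of gene length, scaled to a size set for each library) in WT and 2.90, 3.99, 2.80 and 3.80 FPKM in the mutant group. The targeted gene was therefore not lower in the second group (log2 fold change 0.40, adjusted p = 0.110 from limma), and these samples are called the libraries labelled *flrt2*-KO, or *flrt2*-KO for short. The paper reported lower *flrt2* mRNA by RT-qPCR, in brains of younger larvae of the line. FPKM over the whole gene does not show a 20 bp deletion, so these values cannot settle the genotype. The libraries held 13423932 to 14835885 reads. Of 16 retinal progenitor genes, 14 reached 1 FPKM in every WT library, as did 13 of 14 lens genes, all 13 pigment epithelium genes found, 20 of 22 surface epithelium genes and 11 of 13 endothelium genes, so the material held more than neural retina. *hmx1* and *hmx4* of the progenitor list were listed at 0 in all libraries on the main chromosomes, and *epcam* of the surface list at 0 in WT, while rows on alternate contigs with the same protein match held reads.

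Which claudins the WT eye expressed was taken from the 4 WT libraries. Of the 31 genes, 15 had at least 1 FPKM in each WT library and are called expressed, 12 were read more weakly and 4 (*cldn10b*, *cldn10l2*, *cldn15la* and *cldn7a*) were listed at 0. In order of their WT mean the 15 were *cldn5a*, *cldnb*, *cldne*, *cldn11a*, *cldn1*, *cldn5b*, *cldnh*, *cldn12*, *cldnd1b*, *cldn7b*, *cldn11b*, *cldn19*, *cldnf*, *cldnd1a* and *cldn15b*, from 52.8 ± 4.49 FPKM (SD, n = 4) for *cldn5a* to 4.68 ± 0.677 FPKM (SD, n = 4) for *cldn15b*. FPKM is per gene length, so these levels can be set side by side. The ranges over the WT libraries overlapped in 12 of the 14 pairs of neighbours in this order. The exceptions were the step from *cldn12* to *cldnd1b* and the step from *cldnd1b* to *cldn7b*, so that 8 genes above 20 FPKM in every WT library stood apart from *cldnd1b* at 15.4 to 19.6 FPKM and from a lower group of 6. The count of expressed claudins was 15 to 18 under other minimum levels and scalings.

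**Figure D1:**
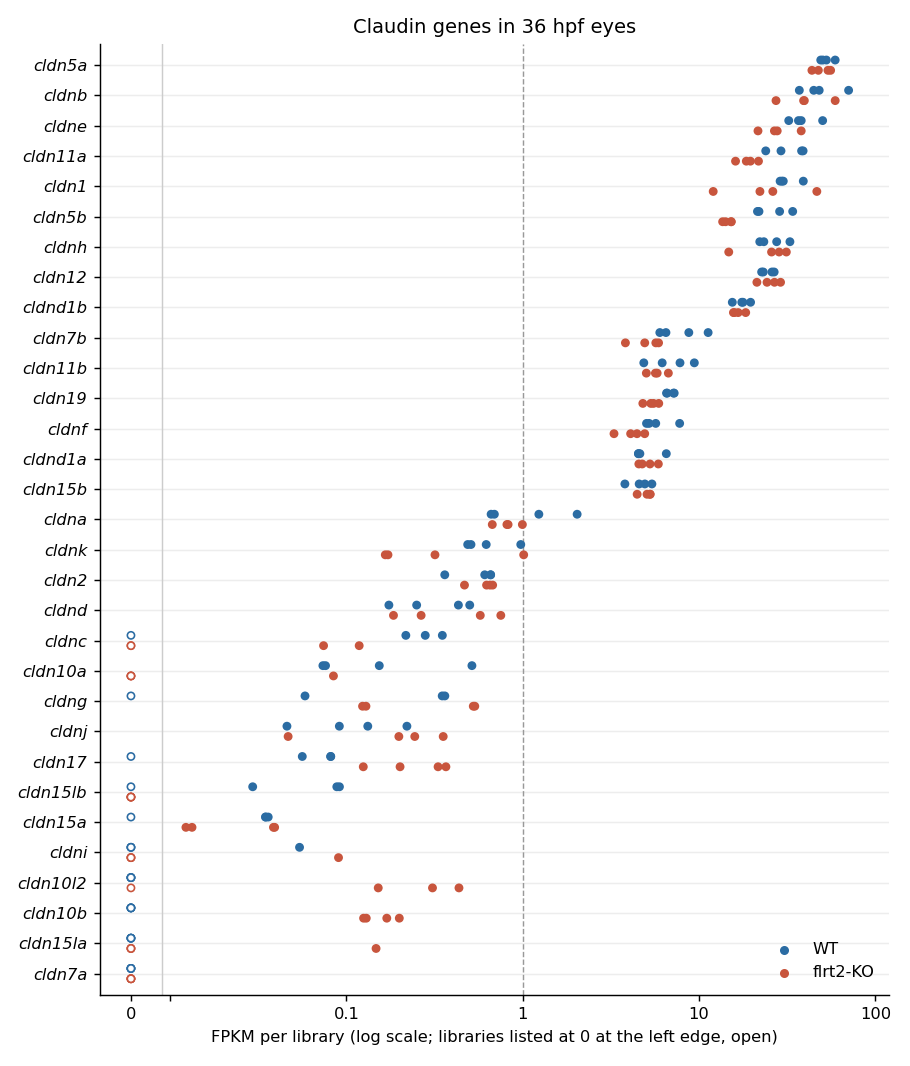
FPKM of the 31 claudin genes in each of 4 WT and 4 *flrt2*-KO libraries, 1 point a library, on a log axis with libraries listed at 0 as open points at the left edge; the dashed line marks 1 FPKM. The 15 expressed genes lie to the right of that line in every WT library, and *cldn5b* and *cldn11a* are the 2 among the 8 highest whose groups do not overlap.

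A small number of genes held most of the claudin RNA. The 31 genes summed to 328, 327, 329 and 388 FPKM in the WT libraries. *cldn5a* alone held 15.5% ± 2.22 (SD, n = 4) of that sum, the 5 highest genes 60.1% ± 2.67 (SD, n = 4) and the 8 highest 82.8% ± 0.876 (SD, n = 4). In *flrt2*-KO the sum was 237, 278, 328 and 284 FPKM. The library 2_17 labelled *flrt2*-KO lay within the WT values and the other 3 lay below all of them. All genes together summed to 507015 FPKM in *flrt2*-KO 2_17 and to 418891 to 462858 FPKM in the WT libraries. The claudin sums are not corrected for that, so the place of 2_17 depends on the scaling.

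The comparison of the groups asked which claudins differ in *flrt2*-KO eyes. Of the 31 genes, 18 passed the filter of 0.5 FPKM in at least 4 of the 8 libraries and were tested, namely the 15 expressed genes with *cldna*, *cldnk* and *cldn2*. Of these, *cldn5b* and *cldn11a* were lower in *flrt2*-KO, none was higher and 16 did not pass (limma on log2(FPKM + 0.5), Benjamini-Hochberg adjusted p under 0.05 over 21012 genes). The share past the test was 11.1%, where 15.6% of all genes tested passed, 8.28% higher and 7.37% lower. All genes tested include rows without annotation and rows on alternate contigs, where the members are named genes of chromosomes 1 to 25. With only annotated genes of chromosomes 1 to 25 and the mitochondrial genome fitted, 1034 of 16575 were higher and 898 lower. Of the claudins, 2 were lower and 0 higher in that fit too. The claudin share is therefore not placed above or below the background. None of the 18 passed with a change of more than 2-fold, where 6.94% of all genes tested did. At an unadjusted p under 0.05, 6 of the 18 were lower and 0 higher. The share of all genes at that level was not counted, so these 6 have no background to be read against. At the adjusted threshold, voom on the recovered reads called the same number as limma, 2 lower and 0 higher. The fitted difference was below 0 for 14 and above 0 for 4, with a median of -0.27 on the log2 scale beside -0.01 for all genes tested. The libraries of the 2 groups did not overlap for 5 of the 18, or 27.8%, beside 21.1% of all genes tested.

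**Figure D2:**
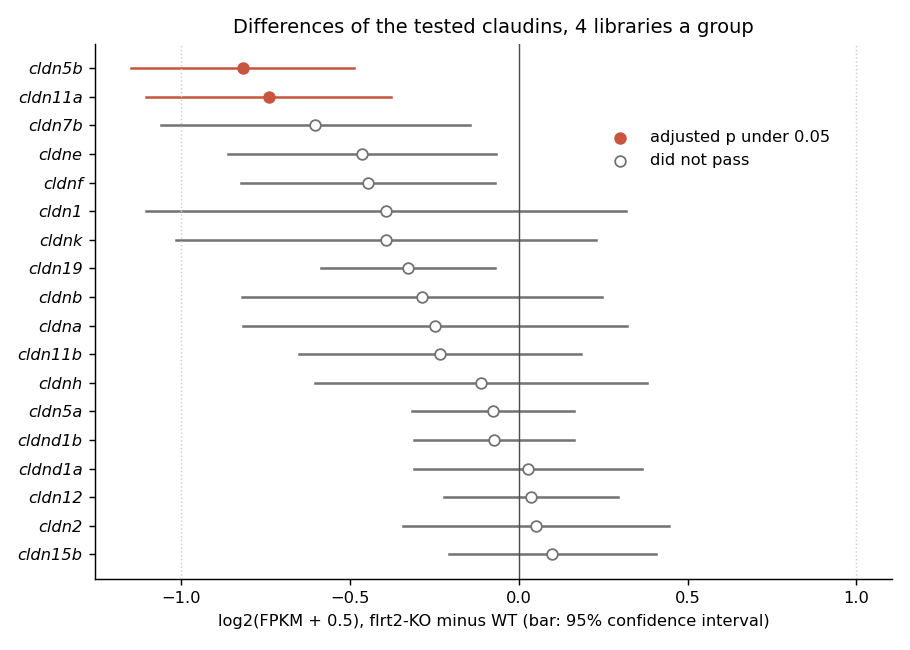
Difference of each of the 18 tested claudins on the log2(FPKM + 0.5) scale, *flrt2*-KO minus WT, with its 95% confidence interval from limma (4 libraries a group); dotted lines mark 2-fold. The filled points, *cldn5b* at -0.82 and *cldn11a* at -0.74, are the 2 genes past an adjusted p of 0.05.

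*cldn5a* and *cldn5b* are the zebrafish counterparts of claudin-5, the main sealing claudin of brain and retinal vessels in mammals. In zebrafish *cldn5b* is known from blood vessels, and *cldn5a* also from the neuroepithelium that lines the brain ventricles. *cldn5b* (ENSDARG00000014059, chromosome 10, 43994471 to 43996117, plus strand) had 34.0, 21.9, 28.6 and 21.5 FPKM in WT. It had 13.6, 15.2, 15.2 and 14.1 FPKM in *flrt2*-KO. All 4 *flrt2*-KO values lay below the lowest WT value, and they spread over a narrower range than the WT values. The mean fell from 26.5 ± 5.98 to 14.5 ± 0.803 FPKM (SD, n = 4 each), a log2 fold change of -0.82 (SE 0.149, 95% confidence interval -1.15 to -0.49, adjusted p = 0.0045 from limma). In bulk RNA, fewer cells of a type and less RNA per cell cannot be told apart.

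*cldn5a* (ENSDARG00000043716, chromosome 8, 4697764 to 4699320, plus strand), the highest claudin, had 50.4, 52.7, 59.2 and 49.0 FPKM in WT and 53.9, 55.8, 43.7 and 47.5 FPKM in *flrt2*-KO. The groups overlapped, and the difference of -0.08 (log2, 95% confidence interval -0.32 to 0.16, adjusted p = 0.694 from limma) has an interval that does not reach the -0.82 of *cldn5b*. *cldn5b* per *cldn5a*, a ratio chosen after the values were seen and given with no test, was 0.674, 0.415, 0.484 and 0.438 in WT and 0.253, 0.272, 0.349 and 0.298 in *flrt2*-KO, without overlap. The gene zgc:63587, within 20 kb of *cldn5a* on the opposite strand, was higher in *flrt2*-KO (0.58, adjusted p = 0.0136 from limma).

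Other endothelial genes were read beside *cldn5b*. Of 13 listed, 12 were tested, of which 2 were lower, 0 higher and 10 did not pass, with a median of -0.09. Of all genes tested, 15.6% passed, 7.37% of them all as lower. The 2 were *tek*, a receptor of angiopoietins, at 4.54 ± 0.757 FPKM in WT and 2.4 ± 0.598 FPKM in *flrt2*-KO (SD, n = 4 each; log2 fold change -0.81, adjusted p = 0.0175 from limma), and *egfl7*, a secreted protein of vessels, at 7.06 ± 1.43 and 4.65 ± 0.479 FPKM (SD, n = 4 each; -0.54, adjusted p = 0.0409 from limma). *cdh5*, the cadherin of endothelial junctions, and *kdrl*, a VEGF receptor, had differences of -0.13 and 0.09 and did not pass. The summed list ranged from 60.0 to 83.0 FPKM in WT and from 58.2 to 66.0 FPKM in *flrt2*-KO, and its lowest WT library, 12_16, was the one with the highest *cldn5b*. The part of endothelial RNA in the *cldn5b* result was not tested. Within 20 kb of *cldn5b*, no gene passed the test. *acads*, an enzyme of fatty acid breakdown, had 12.7 and 8.70 FPKM (-0.56, adjusted p = 0.0733 from limma). CR384089.1, which holds all of *cldn5b* on the same strand, was listed at 0 in WT and at 0.564, 0.539, 0.572 and 0 FPKM in *flrt2*-KO. Reads shared by 2 genes can be lost or split in counting, and the part of this in the *cldn5b* values was not tested.

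*cldn11a* and *cldn11b* match claudin-11, which in mammals forms the tight junctions of myelin sheaths and of the testis. *cldn11a* (ENSDARG00000020031, chromosome 2, 25997426 to 26001173, minus strand) had 23.9, 29.2, 38.2 and 38.9 FPKM in WT. It had 16.1, 18.5, 21.7 and 19.6 FPKM in *flrt2*-KO. All 4 *flrt2*-KO values lay below every WT value, with 21.7 and 23.9 FPKM as the nearest. The mean fell from 32.5 ± 7.27 to 19 ± 2.34 FPKM (SD, n = 4 each), a log2 fold change of -0.74 (SE 0.164, 95% confidence interval -1.11 to -0.38, adjusted p = 0.0122 from limma). *cldn11b* (chromosome 24) had 6.18, 4.86, 9.40 and 7.80 FPKM in WT and 5.79, 5.66, 6.70 and 5.02 FPKM in *flrt2*-KO, with overlapping groups and a difference of -0.23 (95% confidence interval -0.65 to 0.18, adjusted p = 0.457 from limma). *slc7a14a*, the one annotated gene within 20 kb of *cldn11a*, had 2.90 and 2.80 FPKM.

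Of 8 genes of myelinating cells listed, 3 were tested. *mpz* and *mbpa* were at or near 0 in all libraries, while *mbpb* had 8.04 and 8.63 FPKM and did not pass. *plp1a*, a myelin proteolipid gene, was higher in *flrt2*-KO, at 36.5 ± 3.17 and 56.9 ± 11.4 FPKM (SD, n = 4 each; log2 fold change 0.61, adjusted p = 0.0194 from limma). The part of myelinating cells in the *cldn11a* result was not tested. *cldnk*, a zebrafish marker of oligodendrocytes and Schwann cells, was weakly read at 0.487, 0.621, 0.509 and 0.975 FPKM in WT and 0.166, 0.318, 1.01 and 0.172 FPKM in *flrt2*-KO and did not pass. *cldn19*, which in mammals is made in Schwann cells, kidney and retinal pigment epithelium, had 6.54, 7.23, 6.60 and 7.16 FPKM in WT and 5.33, 5.52, 5.91 and 4.80 FPKM in *flrt2*-KO. Its groups did not overlap, but the difference of -0.33 did not pass (95% confidence interval -0.59 to -0.07, adjusted p = 0.0857 from limma). All 13 pigment epithelium genes did not pass.

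**Figure D3:**
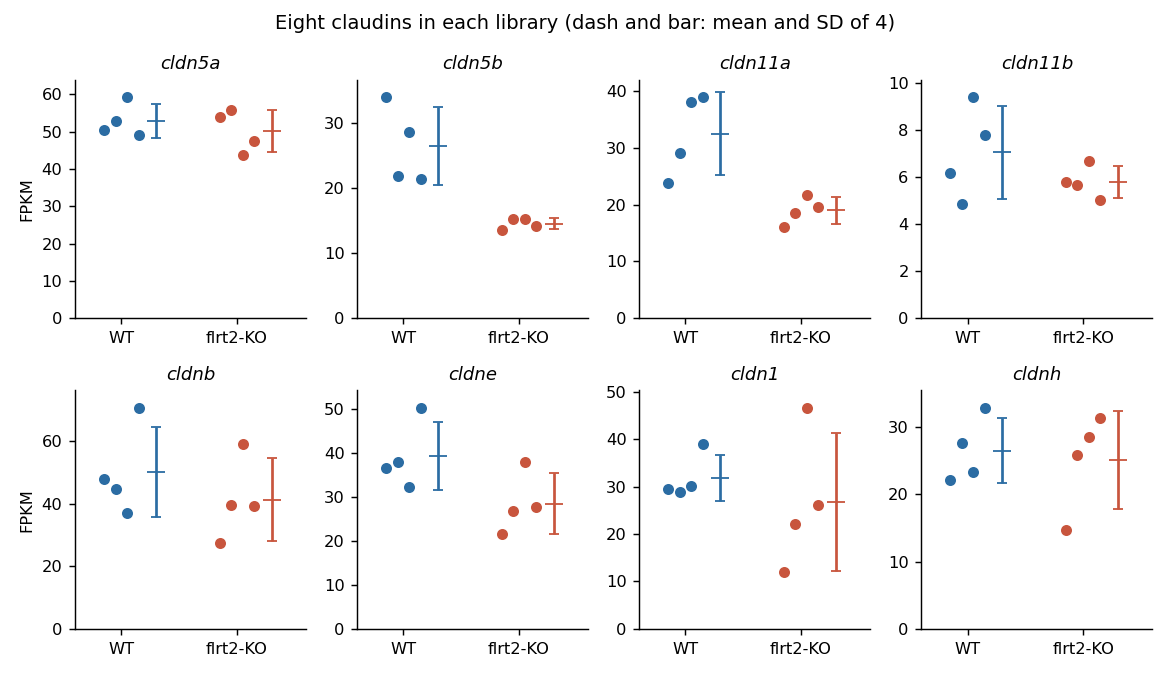
FPKM of 8 claudins in each library, with the mean and SD of 4 libraries beside the points; every axis starts at 0. The groups are apart for *cldn5b* and *cldn11a* and overlap for *cldn5a*, *cldn11b*, *cldnb*, *cldne*, *cldn1* and *cldnh*.

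Claudins of epithelia and their genomic neighbours were taken next. Of the 31 genes, 8 lie in short clusters on chromosomes 15 and 21. These are *cldnj*, *cldne*, *cldnf* and *cldna* on chromosome 15 and *cldnh*, *cldnc*, *cldnb* and *cldnd* on chromosome 21. The adjacent members *cldn10b* and *cldn10l2* on chromosome 9 were rarely read and are given separately below. *cldnb*, known from the epidermis and the lateral line of zebrafish, had 48.0, 44.7, 37.0 and 70.5 FPKM in WT and 27.3, 39.5, 59.2 and 39.2 FPKM in *flrt2*-KO. *cldne*, known from the outer covering layer of the zebrafish embryo, had 36.6, 38.0, 32.3 and 50.2 FPKM in WT and 21.6, 26.8, 38.0 and 27.8 FPKM in *flrt2*-KO. *cldnh* had 22.1, 27.6, 23.3 and 32.8 FPKM in WT and 14.7, 25.8, 28.5 and 31.3 FPKM in *flrt2*-KO. For all 3 genes the library 12_16 was the lowest of *flrt2*-KO and WT 1_8_ysy the highest of WT. None of the 3 passed, with differences of -0.29 (95% confidence interval -0.82 to 0.25), -0.46 (-0.86 to -0.07) and -0.11 (-0.60 to 0.38). *cldne* alone changed its call: with the libraries paired by title suffix it fell by 0.70 (adjusted p = 0.0196 from limma), and without *flrt2*-KO 2_17 by 0.61 (adjusted p = 0.0364 from limma). In the paired fit WT 1_8 and *flrt2*-KO 2_17 have no partner and add nothing to the difference. Both calls therefore set 2_17 aside and are not separate checks.

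*cldnf* had 5.21, 5.68, 5.04 and 7.76 FPKM in WT and 3.29, 4.45, 4.92 and 4.09 FPKM in *flrt2*-KO, without overlap and without passing (-0.45, adjusted p = 0.108 from limma). *cldna* was weakly read at 0.662 to 2.04 FPKM in WT and 0.672 to 0.996 FPKM in *flrt2*-KO. *cldnc*, *cldnd* and *cldnj* stayed below the filter. *cldnj*, needed for otolith formation in the zebrafish ear, had 11 reads over the WT libraries and 17 over *flrt2*-KO.

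Outside these clusters, *cldn1*, whose mammalian counterpart seals the epidermis, had 29.5, 28.8, 30.0 and 39.0 FPKM in WT and 12, 22.1, 46.6 and 26.2 FPKM in *flrt2*-KO. It had the widest spread of the expressed claudins in *flrt2*-KO (SD 14.5 FPKM), and its difference of -0.39 spans 0 widely (95% confidence interval -1.11 to 0.32). *cldn7b* had 11.3, 6.49, 5.99 and 8.75 FPKM in WT and 3.82, 4.92, 5.89 and 5.69 FPKM in *flrt2*-KO. Its groups did not overlap, with 5.99 and 5.89 FPKM as the nearest values, and the difference of -0.60 did not pass (95% confidence interval -1.06 to -0.15, adjusted p = 0.0773 from limma).

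The epithelial claudins and the surface epithelium genes were set side by side by library. The 8 cluster claudins summed to 114, 117, 98.5 and 164 FPKM in WT and to 68.2, 97.6, 132 and 104 FPKM in *flrt2*-KO. The 22 surface epithelium genes found, keratins and other genes of skin, summed to 5095, 5593, 4888 and 6808 FPKM in WT and to 2714, 3871, 5681 and 5326 FPKM in *flrt2*-KO. In both sums WT 1_8_ysy was the highest library, *flrt2*-KO 12_16 the lowest and 2_17 the highest of its group, and the groups overlapped. Of all genes tested, 15.6% passed, 8.28% as higher and 7.37% as lower. Of 20 surface genes tested, 3 were lower (*krt4*, *krt91* and *anxa1b*), 0 higher and 17 did not pass. *krt4*, a keratin of the outer skin layer, is the largest of these, and its difference of -1.24 shrank to -0.17 (adjusted p = 0.668 from limma) when reads of an alternate-contig row with the same protein match were added. With such reads added for all genes, 2 surface genes were lower and 1 higher, *epcam*, at 11.2 ± 3.09 and 37.4 ± 2.86 FPKM (SD, n = 4 each). The surface sum kept the order of its extremes, with 10126 FPKM in WT 1_8_ysy and 4725 FPKM in *flrt2*-KO 12_16. The part of surface epithelium in the claudin values was not tested.

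**Figure D4:**
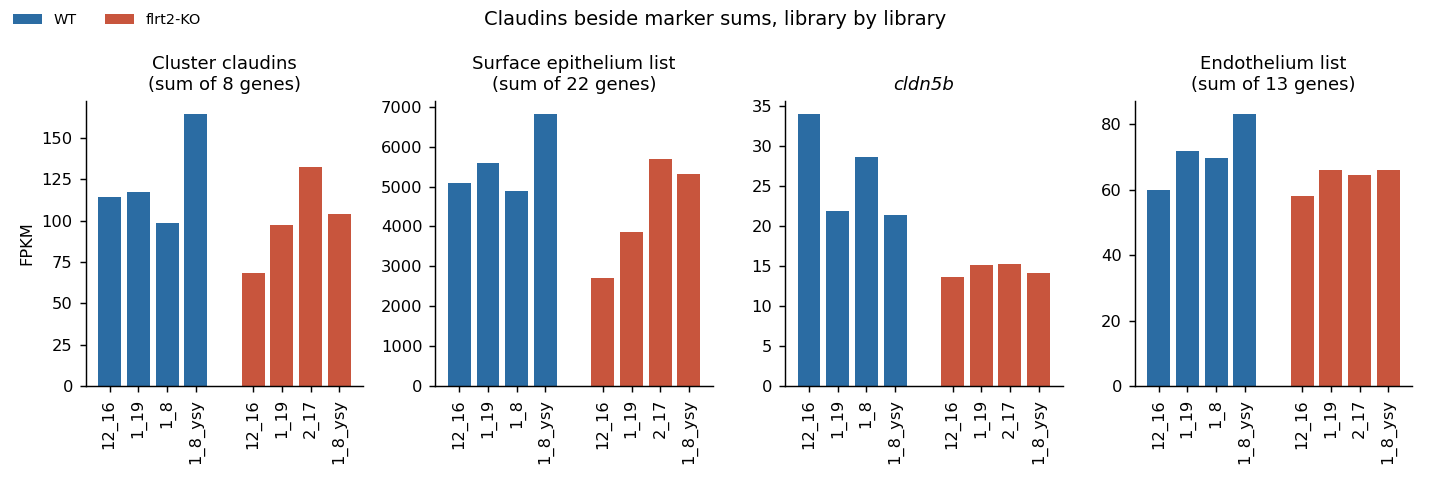
Summed FPKM of the 8 cluster claudins, of the surface epithelium list, of *cldn5b* and of the endothelium list in each library, named by its title suffix. WT 1_8_ysy is highest and *flrt2*-KO 12_16 lowest in the first 2 panels, while *cldn5b* is between 13.6 and 15.2 FPKM in all *flrt2*-KO libraries.

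None of the other expressed claudins passed the test. *cldn12*, a claudin without the usual anchor sequence for scaffold proteins, had 23.1, 26.7, 25.9 and 22.6 FPKM in WT and 26.8, 24.3, 21.3 and 29.0 FPKM in *flrt2*-KO (difference 0.04, 95% confidence interval -0.22 to 0.29). It lies within *adam22* on the opposite strand, and strand use in the counting is not given in the sources used here. *cldnd1b* and *cldnd1a*, more distant relatives that carry a claudin domain, had 17.6 ± 1.70 and 5.05 ± 0.981 FPKM in WT and 16.6 ± 1.24 and 5.12 ± 0.589 FPKM in *flrt2*-KO (SD, n = 4 each). For *cldnd1b* the values were 15.4, 19.6, 17.5 and 17.7 FPKM in WT and 18.4, 16.7, 15.7 and 15.9 FPKM in *flrt2*-KO. The intervals of the 2 genes, -0.31 to 0.16 and -0.31 to 0.36, hold no 2-fold change in either direction. *cldn15b* ranged from 3.80 to 5.40 FPKM in WT and from 4.46 to 5.29 FPKM in *flrt2*-KO. *cldn2*, whose mammalian counterpart forms a cation pore of leaky epithelia, was read at 0.361 to 0.658 FPKM in WT and 0.467 to 0.675 FPKM in *flrt2*-KO.

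The claudin-10 genes, which form ion pores in mammals, were rarely read. *cldn10b* (ENSDARG00000104528, chromosome 9, 156142 to 159438, plus strand), which the study chose on these samples for a heatmap, so that its direction is not independent evidence, had 0 reads in every WT library, which allows up to 3 reads for the group. It had 3, 5, 4 and 3 reads in *flrt2*-KO, 15 in all. That is 5.19-fold that floor taken over the group, per read of the libraries, with the counting error of the 15 reads not included. These are levels of 0.125 to 0.20 FPKM, well below the 1 FPKM taken as expressed. With no filter on low values its log2 fold change was 0.39 with a pseudocount of 0.5 (adjusted p = 0.0060 from limma). All WT values were 0 in that fit and had no spread. The gene entered the fit only through its *flrt2*-KO reads, so this p-value adds no support. Its neighbour *cldn10l2* had 0 reads in WT and 1, 3, 2 and 0 reads in *flrt2*-KO, and CABZ01067558.1, which follows and matches claudin-10, had 1 read over WT and 6 over *flrt2*-KO.

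Expressed genes on both sides of this group differed between the groups as well, and were looked up after the values of *cldn10b* were seen. *rrp1*, a gene of ribosome assembly that ends at 153070 ahead of *cldn10b* on the same strand, had 10.04, 14.2, 12.9 and 13.1 FPKM in WT and 32.2, 35.9, 41.6 and 35.1 FPKM in *flrt2*-KO (log2 fold change 1.495, adjusted p = 6.1e-05 from limma). zgc:158619, on the opposite strand behind the group, fell from 17.8 ± 1.55 to 11.1 ± 1.67 FPKM (SD, n = 4 each; adjusted p = 0.0062 from limma). Whether the few *cldn10b* reads come from its own transcript or from a neighbouring one was not tested. *cldn10a*, on chromosome 6, had 7, 1, 2 and 1 reads in WT and 0, 0, 0 and 1 in *flrt2*-KO. Both tested genes within 20 kb of *cldn10a* were lower, *dzip1* (-1.69, adjusted p = 0.00053 from limma) and *abcc4* (-1.01, adjusted p = 0.0198 from limma). Each has an alternate-contig row, whose reads are not part of these values.

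**Figure D5:**
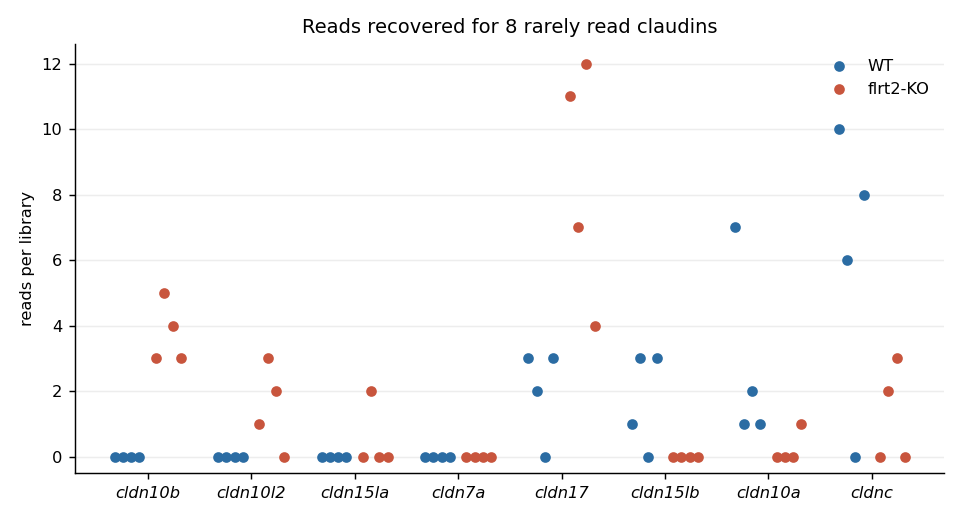
Reads in each library of 8 claudins below the filter, recovered from FPKM and gene length. *cldn10b* has 0 reads in all 4 WT libraries and 3 to 5 in the *flrt2*-KO libraries, and no gene shown exceeds 12 reads in a library.

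Of the other rarely read claudins, *cldn17* had 3, 2, 0 and 3 reads in WT and 11, 7, 12 and 4 reads in *flrt2*-KO. Its groups did not overlap, but with no filter it did not pass (adjusted p = 0.0568 from limma). It overlaps on the same strand a claudin-8 gene read at 7.47 and 6.94 FPKM, and reads shared by 2 genes can be lost or split in counting. *cldn15lb* had 1, 3, 0 and 3 reads in WT and 0 in each *flrt2*-KO library, with overlapping groups. Its WT reads were 2.25-fold a floor of 3 reads over *flrt2*-KO, with their own counting error not included. *cldn15la*, a zebrafish gene of the intestinal lining, had 2 reads in 1 *flrt2*-KO library, and *cldn7a* had 0 in all libraries. *cldnc* had 24 reads over WT and 5 over *flrt2*-KO. *cldng* and *cldnd* had 0 to 8 reads a library, and *cldn15a* had 0 to 3.

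*cldni* was the one member with a matching row on an alternate contig. Its own row on chromosome 3 had 2 reads over WT and 3 over *flrt2*-KO. A row without a gene name on an alternate contig of chromosome 3, which matches claudin-6 and starts within 0.2 Mb, had 59, 169, 214 and 199 reads in WT and 57, 187, 166 and 171 reads in *flrt2*-KO. With these added, *cldni* had 4.31 ± 1.91 and 4.24 ± 1.73 FPKM (SD, n = 4 each), with no difference past the test (log2 fold change -0.00). That would raise the count of expressed genes among the 31 members to 16. In both groups the library 12_16 was the lowest. Whether both rows are copies of 1 gene was not tested. *cldn5b* and *cldn11a* had no such row.

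Claudin rows that the naming rule leaves out were also read. 5 rows are named CLDN in capitals, of which 2 were tested and 0 passed: the claudin-8 gene above and one named CLDN4 on chromosome 21 at 3.64 and 3.0 FPKM. Both reached 1 FPKM in every WT library but lie outside the count of expressed members. 13 other rows match a claudin protein without a claudin name. They include the alternate-contig row set beside *cldni*, which was tested alone and did not pass, and CABZ01067558.1, given above. Of these, si:ch211-95j8.2 on chromosome 10 had 3.45 and 4.95 FPKM and did not pass (log2 fold change 0.45, adjusted p = 0.210 from limma). It too reached 1 FPKM in every WT library.

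Claudins act with scaffolds, adhesion proteins and polarity proteins of the junction, and few of their genes passed. Of 55 partner genes listed, 47 were found and 40 tested. Of these, 1 was higher, 1 lower and 38 did not pass, with a median difference of -0.05. The share past the test was 5.0%, beside 15.6% of all genes tested. With only annotated genes of chromosomes 1 to 25 and the mitochondrial genome fitted, 1034 of 16575 genes were higher and 898 lower. Of the partner genes, 1 was higher and 1 lower in that fit. The list was drawn up with earlier results of these data known. The 4 highest in WT were *magi1a* (44.6 and 46.4 FPKM in WT and *flrt2*-KO), *jam3b* (41.0 and 44.8 FPKM), *tjp1a* (30.2 and 32.5 FPKM) and *prkci* (26.2 and 27.2 FPKM), which encode a junction scaffold, an adhesion protein, a ZO-1 scaffold and a polarity kinase. None of the 4 passed. *tjp1b*, the second ZO-1 gene, was higher, with 10.4, 14.2, 11.5 and 8.85 FPKM in WT and 16.4, 17.6, 15.3 and 14.2 FPKM in *flrt2*-KO. The nearest values of the 2 groups are 14.15 and 14.22 FPKM, and the difference of 0.50 (SE 0.144, adjusted p = 0.0425 from limma) did not pass with the libraries paired by suffix (0.53, adjusted p = 0.0575 from limma). When 1 library at a time was left out, it passed without WT 1_19 (adjusted p = 0.0143 from limma) and not without any of the other 7 (adjusted p = 0.0582 to 0.122 from limma).

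*oclna*, an occludin, the other strand protein of tight junctions, had 12.7, 11.2, 8.93 and 14.9 FPKM in WT and 6.09, 8.11, 10.6 and 7.69 FPKM in *flrt2*-KO. It did not pass (-0.53, adjusted p = 0.0872 from limma), but did with the libraries paired by suffix (-0.79, adjusted p = 0.0313 from limma). The paired fit draws nothing from *flrt2*-KO 2_17, which has no partner. *oclna* also passed with 2_17 left out (-0.66, adjusted p = 0.0441 from limma). *pard6a*, a polarity gene, had 1.43, 1.45, 1.496 and 1.88 FPKM in WT and 0.148, 0.0530, 0.431 and 0.593 FPKM in *flrt2*-KO (log2 fold change -1.40, adjusted p = 0.0028 from limma). That call ended when reads of its alternate-contig row were added, with 3.77 ± 0.558 and 3.31 ± 0.495 FPKM (SD, n = 4 each; -0.16, adjusted p = 0.555 from limma). *cxadr*, an adhesion protein of epithelia, was listed at 0 in all libraries on its chromosome, and with alternate-contig reads added it had 28.7 ± 8.18 and 50.3 ± 8.38 FPKM (SD, n = 4 each; 0.84, adjusted p = 0.0386 from limma).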

How the data were processed

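RNA of 4 WT and 4 *flrt2*-KO eye pools was sequenced. Per the labels and Methods, the authors aligned reads with HISAT2 2.0.5 to GRCz11 with gene counts from featureCounts 1.5.0-p3. The deposited table holds FPKM values, the only file used. Reads were recovered as FPKM times the length of the gene, divided by the smallest such product above 0 in the library. That smallest product was taken as the value of a single read, and 100% of the quotients came out whole (tolerance 1e-06). The recovered reads served for read numbers and for voom. The library size in the FPKM was 0.930 to 1.07 of the sum of these reads, lowest for *flrt2*-KO 2_17 and highest for WT 12_16. Floors cover counting error only. Gene positions are those of the table.

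The 21012 genes that reached 0.5 FPKM in 4 or more of the 8 libraries entered the test on log2(FPKM + 0.5) with limma 3.58.1 in R 4.3.3 (intensity trend, robust prior), a scale that understates the change of low genes. Groups came from the genotype labels. The step was tested on simulated data. Tables and figures used Python 3.11.15, pandas 2.3.3, numpy 2.4.6 and matplotlib 3.10.9.

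Members and lists were chosen with earlier results of these data known. Named in full were claudins past the test, the 12 highest in WT, those read in 1 group only and *cldn10b*, and of the lists the genes past the test and up to 4 highest in WT. Others named were chosen after their values were seen.

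Alternatives were pseudocounts, filters, scalings, variance models, voom, call rules, row sets, each library left out and a replicate block on the title suffix. Across genes, deviations from the group means correlated at r = 0.141, 0.122 and 0.106 in the 3 pairs of the same suffix. In the 13 unlike pairs r was -0.223 to 0.112, so the lowest same-suffix pair lies within that range. The suffix was taken to pair libraries in the replicate block only, and the main fit is unpaired. The sources do not say what the suffix means. Genes are not independent replicates.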

Additional observations from a re-analysis of the deposited data

Results flagged for a closer look

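Among 36 groups of 4 libraries (18 tested claudins in 2 groups), 3 held a library far from the other 3, where chance gives about 1 group in 20. *cldn1* had 39.0 FPKM in WT 1_8_ysy and 28.8 to 30.0 FPKM in the other WT libraries. *cldnd1a* had 6.52 FPKM in WT 12_16 and 4.53 to 4.62 FPKM in the others. *cldn2* had 0.361 FPKM in WT 1_8 and 0.609 to 0.658 FPKM in the others. These *cldn2* values rest on few reads, 10 in WT 1_8 and 17 to 19 in the others. None of the 3 genes passed the test between the groups.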

How the results depend on the processing

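*cldn5b* and *cldn11a* passed the test and were lower in each of 22 alternative fits, with log2 fold changes of -0.91 to -0.69 and -0.88 to -0.65 and adjusted p of 0.0026 to 0.0430 and 0.0022 to 0.0420. The replicate block on the title suffix gave 3 lower claudins, with *cldne* added, and 0 higher, and the block with 1_8 and 1_8_ysy joined gave 2 lower and 0 higher. At an adjusted p under 0.01, 1 claudin was lower, and with a 2-fold threshold 0, since both changed by less. With no filter 1 was higher, *cldn10b*, whose WT values were all 0. For the partner genes, 0 were higher with no filter, equal column sums, no trend or robust prior, either replicate block, the 2-fold threshold or an adjusted p under 0.01, and 0 to 1 when a library was left out, and *tjp1b* fell short in 13 of its 22 alternatives (adjusted p 0.0143 to 0.122 over all). Lower partner genes numbered 2 with the replicate block, 0 with alternate-contig reads added and 1 to 2 when a library was left out. The second was *prkcz* without WT 1_8_ysy (-1.01, adjusted p = 0.0490 from limma) and *oclna* without *flrt2*-KO 2_17 (-0.66, adjusted p = 0.0441 from limma). *prkcz* has an alternate-contig row. With its reads added and all libraries kept, *prkcz* did not pass (-0.52, adjusted p = 0.255 from limma). Small differences turned sign without passing: *cldn12* with equal column sums (-0.031) and voom (-0.032), *cldnd1a* with equal column sums (-0.038), voom (-0.037), the replicate block (-0.031) and the block with 1_8 and 1_8_ysy joined (-0.019), and *cldn5a* with the replicate block (0.043). With a library left out, *cldn12* ranged from -0.030 to 0.12, *cldnd1a* from -0.037 to 0.14, *cldn2* from -0.051 to 0.11 and *cldnh* from -0.23 to 0.12. Equal column sums and voom moved the median of all genes to -0.07 and -0.08. Besides *cldne*, *tjp1b* and *oclna*, the replicate block changed no other call among the named claudins and partners. The filter on low values left 13 claudins out of the test. With no filter *cldn10b* passed, a call that rests on WT values with no spread.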
